A study of Mus musculus with 7 samples.

Results

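Interstitial collagens and the matrix proteins that fibroblasts make with them were followed as a list of 40 genes in kidneys of male mice with and without the heparan sulfate 3-O-sulfotransferases Hs3st3a1 and Hs3st3b1. The members were chosen by gene symbol, and all 40 were found among the 48709 Ensembl genes of the deposited count table. All 40 also passed the low-count filter, among 15394 genes tested. The list covers 14 collagen chains and 26 other genes, which are the glycoproteins, small proteoglycans, elastic fibre components, processing enzymes, turnover genes and cell markers described below.

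RNA was sequenced from the kidneys of 3 wild-type mice (WT, replicates 1, 2 and 4) and 4 mice labelled Hs3st3a1;3b1 double knockout (DKO, replicates 1 to 4), all male. The title of the series names a smaller kidney, smaller glomeruli and altered glomeruli when these enzymes are missing. The sources used here give neither the age and strain of the mice nor the deleted part of each gene, the kind of allele or anything carried by both groups. Each library carries a replicate number of its own within its group and was treated as 1 mouse. Because RNA came from kidney tissue and not from sorted cells, fewer cells of a type and less RNA per cell cannot be told apart in any value below.

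In the kidney, the interstitium between the tubules holds fibroblasts and pericytes that secrete fibrillar collagens, mainly types I and III, together with type VI microfibrils, fibronectin, small leucine-rich proteoglycans and elastic fibre proteins. Procollagen is folded in the endoplasmic reticulum with a dedicated chaperone, trimmed outside the cell, assembled into fibrils and crosslinked by lysyl oxidases, and the fibrils are later cut by matrix metalloproteinases under the control of their tissue inhibitors. Accumulation of this matrix is a hallmark of renal fibrosis. Heparan sulfate chains bind fibronectin, fibrillar collagens and several growth factors that act on fibroblasts.

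Total counts ranged from 18330929 to 24259400 per library, and levels are given as CPM, read counts brought to 1 common library size by the trimmed mean of M-values. Hs3st3a1 received between 12 and 29 reads in a WT library and between 0 and 3 in a DKO library, so that this gene separated the libraries as labelled. Hs3st3b1 received 56 to 112 reads in WT and 33 to 108 in DKO, and the deleted part is not given, so that its reads check no label. Proximal tubule markers summed to 4924 to 6140 CPM in WT kidneys and 6330 to 7310 CPM in DKO kidneys, and podocyte markers, from the glomerulus, to 93.5 to 103 CPM and 108 to 136 CPM.

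None of the matrix genes passed an adjusted p of 0.05 between DKO and WT kidneys. The lowest member value was 0.183 (edgeR quasi-likelihood test, Benjamini-Hochberg adjustment over all genes), and 0.0% of all genes passed. DESeq2 also called 0 of the 40, giving no adjusted p for 15 of them, while it called 4.37% of all genes. At an unadjusted edgeR p under 0.05 there were 3 members, or 7.5%, against 21.1% of all genes tested. Of these, 1 was higher (Lox, 2.5% of the list, against 9.86% of all genes) and 2 were lower (Pcolce and Serpinh1, against 11.3% of all genes). Groups without overlap were found for 1 member (2.5%), Lox, against 17.4% of all genes, or 8.34% with DKO higher. Both shares were thus below those of all genes. DKO was the lower group for 29 members and the higher for 11, with a median log2 fold change of -0.17, beside 0.04 over all genes, of which 46.8% were lower. The median stayed below 0 when any 1 library was left out, but came as close as -0.01 without DKO replicate 3.

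The members varied between animals of the same genotype, largely together. Each member's log2 CPM was set against its own WT mean, and the median of these differences was 0.26, -0.32 and 0.01 in WT replicates 1, 2 and 4. In DKO replicates 1 to 4 it was -0.56, 0.26, -0.57 and 0.06. DKO replicates 1 and 3 therefore lay below every WT library and DKO replicates 2 and 4 within the WT range. Summed over the 40 genes the level was 1897, 1265 and 1570 CPM in the WT libraries and 1060, 1632, 967 and 1560 CPM in the DKO libraries. In WT, replicate 1 held the highest WT value for 33 of the 40 members and replicate 2 the lowest for 33, whereas over all genes tested these shares were 30.3% and 33.7%. In DKO, replicate 2 was the highest for 22 members and replicate 4 for 15, against 23.5% and 22.9% of all genes. The lowest DKO value came from replicate 3 for 18 members and from replicate 1 for 16, against 26.0% and 28.4% of all genes. The SD of log2 CPM was larger among DKO than among WT animals for 28 of the 40 members (70.0%), and for 47.2% of all genes. Its median over members was 0.373 in WT and 0.487 in DKO, beside 0.286 and 0.267 over all genes. These counts describe 7 animals, whose libraries all members share, and were not tested.

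**Figure D1:**
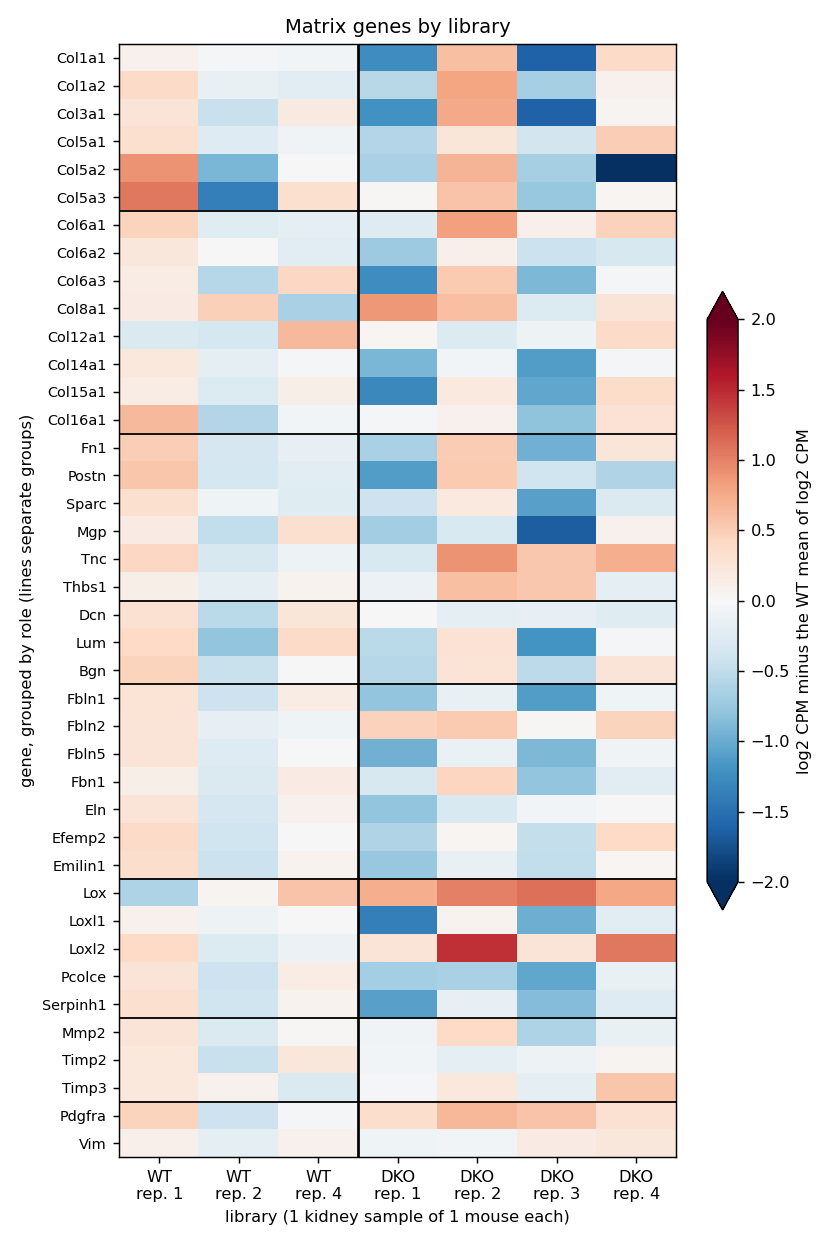
Each row is 1 matrix gene and each column 1 library, and colour gives the log2 CPM minus the WT mean of log2 CPM, with rows grouped by role from fibril-forming collagens (top) to mesenchymal markers (bottom). Most rows are blue in WT replicate 2 and in DKO replicates 1 and 3, whose medians are -0.32, -0.56 and -0.57, and pale or red in WT replicate 1 and DKO replicate 2.

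The fibril-forming collagens summed to 214, 139 and 177 CPM in WT replicates 1, 2 and 4 and to 86.7, 284, 72.2 and 181 CPM in DKO replicates 1 to 4. Col1a1 encodes the alpha-1 chain of type I collagen (ENSMUSG00000001506, GRCm38 chromosome 11, positions 94936224 to 94953042, plus strand, 52 merged exons). Its level was 38.1, 35.1 and 34.5 CPM in WT kidneys replicates 1, 2 and 4 and 15.2, 54.6, 11.7 and 46.9 CPM in DKO kidneys replicates 1 to 4. The WT animals were nearly alike, while DKO animals lay on both sides of them, with no DKO value inside the WT range. The group means were 35.9 ± 1.94 CPM (SD, n = 3) and 32.1 ± 21.8 CPM (SD, n = 4), with a log2 fold change of -0.16 (SE 0.53, edgeR adjusted p 0.880). Without DKO replicate 3 the log2 fold change was 0.13, and without DKO replicate 2 it was -0.54.

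Col1a2 encodes the alpha-2 chain of type I collagen (ENSMUSG00000029661, chromosome 6, positions 4504814 to 4541544, plus strand). It was at 48.7, 33.9 and 31.8 CPM in WT kidneys and 25.6, 64.6, 23.7 and 39.9 CPM in DKO kidneys. DKO replicates 1 and 3 again lay below every WT library and replicate 2 above. The log2 fold change was 0.01 (SE 0.34, edgeR adjusted p 0.990). Type I collagen contains 2 chains from Col1a1 for each chain from Col1a2. Per kilobase of exon, the Col1a1 level was 1.48, 1.96 and 2.05 times that of Col1a2 in WT and 1.13, 1.6, 0.934 and 2.22 times in DKO. The DKO libraries with the least Col1a1 thus also had the lowest ratio, since Col1a2 was lower there by a smaller factor.

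Col3a1 encodes type III collagen, which forms thin reticular fibres together with type I (ENSMUSG00000026043, chromosome 1, positions 45311538 to 45349706, plus strand). Its level was 102, 62.5 and 96.7 CPM in WT kidneys and 36.6, 143, 27.8 and 88.7 CPM in DKO kidneys. The highest DKO library exceeded the lowest 5.15-fold, against 1.63-fold within WT. The means were 87.0 ± 21.4 CPM (SD, n = 3) and 74.1 ± 53.3 CPM (SD, n = 4), and the log2 fold change was -0.23 (SE 0.55, edgeR adjusted p 0.834). The ratio of Col3a1 to Col1a1 per kilobase was 1.78, 1.19 and 1.87 in WT and 1.61, 1.75, 1.59 and 1.27 in DKO, so the groups overlapped and the chains kept a similar proportion in low and high libraries.

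The upstream sequences of 3 members are shown because of what their levels did: Col3a1 had the widest range among DKO animals of the type I and III chains, and Serpinh1 and Fbln5 are abundant members that were lower in DKO in the values given below. Windows are 250 bases that end just before the RefSeq start site (GRCm38.p6), 5′ to 3′ on the gene's strand. Capitals mark TATAAA or CCAAT, searched on both strands. The windows lie at chr1:45311288-45311537 (plus strand), chr7:99353240-99353489 (minus strand) and chr12:101819120-101819369 (minus strand, the more upstream of the RefSeq starts of Fbln5). For Col3a1 and Serpinh1 bases shortly after the start were found in a GENCODE transcript of the gene. For Fbln5 they were not, so its start lacks that check.
Col3a1: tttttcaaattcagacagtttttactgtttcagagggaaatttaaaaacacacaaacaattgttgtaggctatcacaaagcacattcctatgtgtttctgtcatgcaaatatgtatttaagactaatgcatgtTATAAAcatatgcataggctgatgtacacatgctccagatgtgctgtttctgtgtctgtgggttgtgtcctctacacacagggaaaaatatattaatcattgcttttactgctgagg
Serpinh1: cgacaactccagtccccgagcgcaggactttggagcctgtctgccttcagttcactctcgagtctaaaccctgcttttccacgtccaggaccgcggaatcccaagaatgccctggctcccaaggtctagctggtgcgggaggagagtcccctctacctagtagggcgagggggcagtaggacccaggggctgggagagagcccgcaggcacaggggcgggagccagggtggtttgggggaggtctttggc
Fbln5: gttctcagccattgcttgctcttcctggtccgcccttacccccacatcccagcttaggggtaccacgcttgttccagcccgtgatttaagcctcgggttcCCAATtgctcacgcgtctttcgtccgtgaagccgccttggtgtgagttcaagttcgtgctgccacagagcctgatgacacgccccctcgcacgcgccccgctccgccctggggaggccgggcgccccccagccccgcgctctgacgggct

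RefSeq windows were found for 26 of the 40 members. These genes had 33 windows in all. CCAAT occurred on either strand in 6 of the 33 windows, beside 33.8% of all 32851 windows. TATAAA occurred in 5 of the 33 windows, beside 12.4% of all windows. Counted per gene, which is not comparable with the shares of all windows, CCAAT occurred for 6 of the 26 genes (23.1%). TATAAA occurred for 4 of the 26 (15.4%). Most member windows thus held neither set of letters.

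Type V collagen chains, which nucleate fibrils, were scarcer. Col5a2 was at 20.8, 5.88 and 11.2 CPM in WT kidneys and 7.09, 17.7, 7.02 and 2.20 CPM in DKO kidneys, an 8.03-fold range among DKO animals and the widest of any member. It departed from the shared pattern, because DKO replicate 4 had the lowest level of all 7 libraries. Its log2 fold change was -0.57 (SE 0.67, edgeR adjusted p 0.643), and without WT replicate 1 it was -0.03. Col5a1 and Col5a3 averaged 1.81 and 1.18 CPM in WT kidneys and 1.79 and 0.982 CPM in DKO kidneys. As few as 7 reads stood behind a library's value for Col5a3, the fewest of any member.

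Among the other collagens, no chain differed by more than 0.46 on the log2 scale. Type VI collagen forms beaded microfibrils from 3 chains, and these did not share a direction. Col6a1 was at 12.6, 7.89 and 8.09 CPM in WT kidneys and 7.79, 16.4, 9.99 and 12.9 CPM in DKO kidneys (log2 fold change 0.30, SE 0.27). Col6a3 was at 5.19, 3.18 and 6.29 CPM in WT kidneys and 1.98, 6.72, 2.51 and 4.57 CPM in DKO kidneys (log2 fold change -0.31, SE 0.41), and the log2 fold change of Col6a2 was -0.32 (SE 0.25). Per kilobase, Col6a1 exceeded Col6a3 by 6.64, 6.78 and 3.51 times in WT and by 10.7, 6.68, 10.9 and 7.68 times in DKO, so the ratio was highest in DKO replicates 1 and 3, where Col6a3 was lowest. This ratio was not tested.

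Col14a1, a fibril-associated collagen, was at 14.4, 11 and 12.1 CPM in WT kidneys and 6.56, 12.0, 5.69 and 12.1 CPM in DKO kidneys. DKO replicates 1 and 3 lay below every WT library and replicates 2 and 4 within the WT range (log2 fold change -0.46, SE 0.28, edgeR adjusted p 0.347). Col15a1, which links basement membranes to interstitial fibrils, was at 4.20, 3.12 and 4.12 CPM in WT kidneys and 1.54, 4.31, 1.85 and 4.86 CPM in DKO kidneys. As for Col1a1, no DKO value lay inside the WT range, with replicates 1 and 3 below it and replicates 2 and 4 above. The network collagen Col8a1 was the only collagen whose highest DKO value was in replicate 1, at 4.31 CPM. The fibril-associated chains Col12a1 and Col16a1 had log2 fold changes of -0.04 and -0.14, both smaller than their standard errors.

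The adhesive and matricellular glycoproteins split in direction, with 2 higher and 4 lower in DKO and none past an unadjusted p of 0.05. Fn1, which encodes fibronectin and is assembled on cells before collagen, was at 14.1, 7.94 and 8.90 CPM in WT kidneys and 6.38, 14.1, 5.13 and 11.8 CPM in DKO kidneys, the same order of DKO animals as Col1a1. Its log2 fold change was -0.14 (SE 0.35). Sparc, a collagen-binding protein and the most abundant of this group, was at 221, 167 and 150 CPM in WT kidneys and 134, 204, 83.6 and 146 CPM in DKO kidneys (log2 fold change -0.34, SE 0.26, edgeR adjusted p 0.463). Mgp, the calcification inhibitor matrix Gla protein, was at 23.2, 14.9 and 26.1 CPM in WT kidneys and 12.8, 16.9, 6.61 and 22.1 CPM in DKO kidneys. DKO replicate 3 held the lowest value of all libraries for both Sparc and Mgp.

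Tnc, which encodes tenascin C, a protein made at sites of tissue remodelling, did not follow the collagens. It was at 10.6, 6.35 and 7.38 CPM in WT kidneys and 6.43, 14.8, 11.5 and 13.1 CPM in DKO kidneys, and DKO replicate 3 was here among the high libraries. The log2 fold change was 0.50 (SE 0.28, edgeR adjusted p 0.324), with 3 of 4 DKO libraries above every WT library. Thbs1, which encodes thrombospondin 1, an activator of latent TGF-beta, had a log2 fold change of 0.24 (SE 0.23), and Postn, the matricellular periostin, one of -0.33 (SE 0.40).

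Small leucine-rich proteoglycans, which coat collagen fibrils and regulate their width, were all lower in DKO by less than 0.37 on the log2 scale. Dcn, decorin, was at 121, 67.4 and 117 CPM in WT kidneys and 98.6, 86.2, 87.5 and 82.8 CPM in DKO kidneys. The DKO animals were close together for Dcn, within 1.19-fold, and all lay inside the WT range, unlike their spread for the collagens that decorin binds. Bgn, biglycan, spread more, with 150, 80.7 and 110 CPM in WT kidneys and 74.3, 133, 76.5 and 132 CPM in DKO kidneys. The log2 fold changes were -0.20 (SE 0.20) for Dcn, -0.13 (SE 0.27) for Bgn and -0.36 (SE 0.37) for Lum, lumican.

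Of the 7 elastic fibre and fibulin genes, 6 were lower in DKO, with a median log2 fold change of -0.28. Fbln5, fibulin 5, an organiser of elastic fibres, was the most abundant. It was at 79.8, 55.8 and 67.4 CPM in WT kidneys and 34.5, 61.3, 35.9 and 63.5 CPM in DKO kidneys, so that DKO replicates 1 and 3 were below every WT library and replicates 2 and 4 were inside the WT range. Its log2 fold change was -0.47 (SE 0.24, edgeR adjusted p 0.283). Fbln1, fibulin 1, had a log2 fold change of -0.50 (SE 0.28) with DKO replicate 3 lowest, at 4.05 CPM.

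Eln, elastin itself, was at 5.19, 3.44 and 4.64 CPM in WT kidneys and 2.51, 3.52, 4.20 and 4.33 CPM in DKO kidneys (log2 fold change -0.28, SE 0.26). The microfibril gene Fbn1 and the elastic fibre genes Efemp2 and Emilin1 had log2 fold changes of -0.17, -0.14 and -0.35. Fbln2, fibulin 2, was the exception in this group, at 8.04, 5.98 and 6.34 CPM in WT kidneys and 9.29, 9.67, 6.87 and 9.14 CPM in DKO kidneys (log2 fold change 0.36, SE 0.20, edgeR adjusted p 0.298). For Fbln2, 3 of the 4 DKO libraries lay above every WT library.

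The genes that fold, trim and crosslink collagen held all 3 members past an unadjusted p of 0.05. Serpinh1 encodes HSP47, the collagen chaperone of the endoplasmic reticulum (ENSMUSG00000070436, chromosome 7, positions 99345376 to 99353239, minus strand). Its level was 373, 225 and 312 CPM in WT kidneys and 141, 264, 162 and 248 CPM in DKO kidneys. DKO replicates 1 and 3 were below every WT library, and replicates 2 and 4 overlapped WT. The means were 304 ± 74.0 CPM (SD, n = 3) and 204 ± 61.5 CPM (SD, n = 4), with a log2 fold change of -0.57 (SE 0.25, edgeR unadjusted p 0.0451, adjusted p 0.228). Serpinh1 was also the most abundant member per length, at 124 CPM per kilobase in WT, beside 60.7 for Pcolce, 47.4 for Sparc, 8.86 for Col3a1 and 5.47 for Col1a1.

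Pcolce encodes the enhancer of procollagen C-proteinase, which speeds removal of the C-terminal propeptide (ENSMUSG00000029718, chromosome 5, positions 137605103 to 137613784, minus strand). It was at 273, 171 and 252 CPM in WT kidneys and 143, 146, 110 and 205 CPM in DKO kidneys. In 3 of the 4 DKO libraries the level was below every WT library, and DKO replicate 4 lay within the WT range. The means were 232 ± 53.9 CPM (SD, n = 3) and 151 ± 39.6 CPM (SD, n = 4), and the log2 fold change was -0.62 (SE 0.23, edgeR unadjusted p 0.0208, adjusted p 0.183). DESeq2 gave an adjusted p of 0.0787 for Pcolce and 0.131 for Serpinh1.

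Lox encodes lysyl oxidase, which starts the crosslinking of collagen and elastin. It received 14, 22 and 35 reads in WT and 42, 43, 47 and 47 in DKO, or 0.727, 1.16 and 1.66 CPM against 1.85, 2.26, 2.41 and 1.92 CPM. Every DKO library was above every WT library, although the nearest values were 1.66 and 1.85 CPM. The log2 fold change was 0.82 (SE 0.34, edgeR unadjusted p 0.0332, adjusted p 0.207). Loxl2, a second lysyl oxidase, was scarcer, with 13, 8 and 10 reads in WT and 14, 27, 12 and 26 in DKO. Its groups overlapped (log2 fold change 0.82, SE 0.45). Loxl1, the family member tied to elastic fibres, was on the other side, at 3.84, 3.39 and 3.64 CPM in WT kidneys and 1.41, 3.78, 1.85 and 3.14 CPM in DKO kidneys (log2 fold change -0.51, SE 0.33). The 3 lysyl oxidases on the list thus did not share a direction.

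Each of these 3 results depended on single libraries. No member was lower at an unadjusted p under 0.05 without WT replicate 1, WT replicate 4 or DKO replicate 3, Serpinh1 also lost it without DKO replicate 1, and 6 members were lower without DKO replicate 4. Over all genes, the number at that p in either direction also moved, from 1582 to 3796, with 1 library left out. The unadjusted edgeR p of Lox ran from 0.00929 without WT replicate 4 to 0.140 without WT replicate 1.

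**Figure D2:**
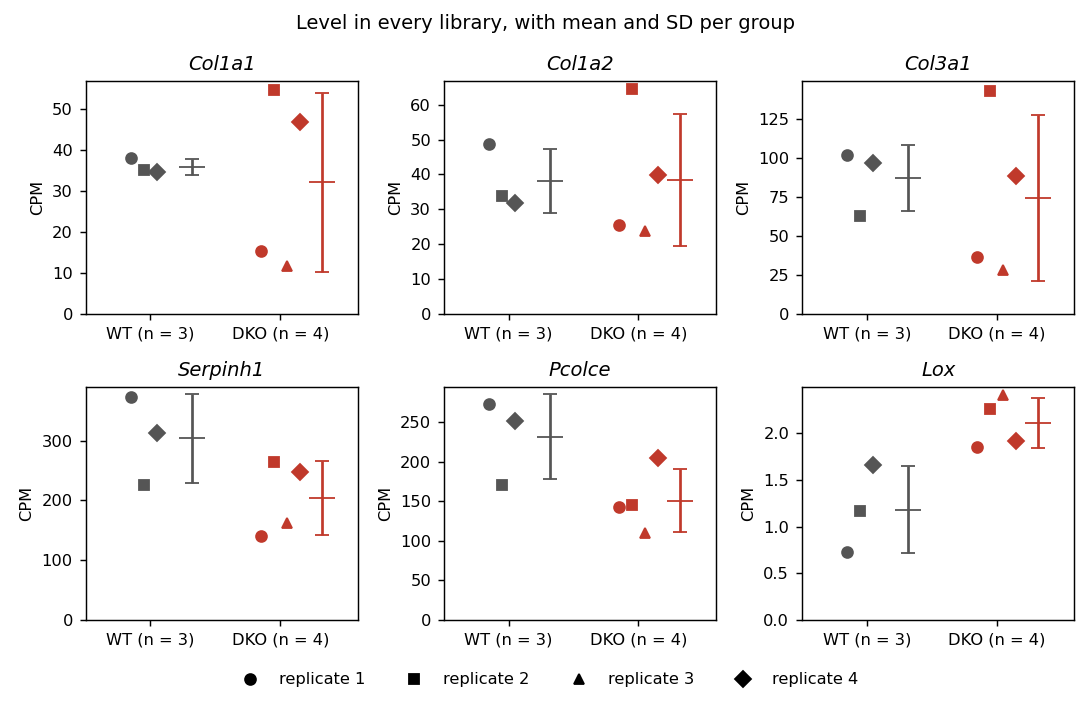
Points give the CPM of 6 matrix genes in every library, with the replicate number shown by the symbol, and the bars beside them give the mean and SD per group (n = 3 WT and n = 4 DKO). DKO replicates 1 and 3 are the 2 lowest libraries for Col1a1, Col1a2, Col3a1 and Serpinh1, and for Lox all DKO libraries, from 1.85 to 2.41 CPM, lie above the WT libraries, from 0.727 to 1.66 CPM.

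No matrix turnover gene or general mesenchymal marker had an unadjusted p under 0.05. Mmp2, a gelatinase that degrades denatured collagen, was at 4.13 ± 0.773 CPM in WT kidneys (SD, n = 3) and 3.89 ± 1.11 CPM in DKO kidneys (SD, n = 4). Its inhibitor Timp2 was at 38.1, 24.1 and 38.4 CPM in WT kidneys and 31.6, 28.8, 30.4 and 34.0 CPM in DKO kidneys, and all DKO values lay inside the WT range. Timp3, an inhibitor that binds to the matrix, was at 188, 172 and 134 CPM in WT kidneys and 160, 188, 144 and 239 CPM in DKO kidneys. Syn3 on the opposite strand covers 21.3% of the Timp3 exon sequence, and with libraries that do not mark strand the reads of the pair cannot be told apart there.

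Vim, the intermediate filament protein of mesenchymal cells, was at 22.6, 18.4 and 22.3 CPM in WT kidneys and 19.7, 20.2, 23.6 and 24.5 CPM in DKO kidneys (log2 fold change 0.06, SE 0.16). Pdgfra, the PDGF receptor that marks interstitial fibroblasts, was at 17.1, 9.42 and 12.4 CPM in WT kidneys and 16.0, 20, 18.8 and 15.5 CPM in DKO kidneys. The log2 fold change of Pdgfra was 0.44 (SE 0.21, edgeR adjusted p 0.260), with DKO replicates 2 and 3 above every WT library. DKO replicate 3, the library with the lowest Col1a1, Col1a2 and Col3a1, therefore had the second highest Pdgfra level of all 7.

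Over all genes, fold changes varied with exon length. Members had a median of 6466 nt of merged exons, against 4008 nt over all genes tested. Of the 3732 genes at least as long as the member median, 76.6% were higher in DKO, with a median log2 fold change of 0.25, whereas of shorter genes 45.7% were higher. Among the 20 members that are that long, 5 were higher, and their median was -0.17. Among the 20 shorter members 6 were higher, with the same median of -0.17. The origin of the length trend was not tested, and removing it could also remove part of a difference between genotypes. In a fit with a trend on exon length and GC content removed within each library, the member median was -0.38, beside 0.00 over all genes. Of the 40 members 32 were lower (80.0%), beside 7630 of the 15394 genes tested. In that fit 7 members had an unadjusted p under 0.05, or 17.5% against 15.6% of all genes. Of these, 6 were lower, which is 15% against 9.03% of all genes, and none passed adjustment. With the replicate number as a block in that fit, 3 were lower at that p (Eln, Fbln5 and Pcolce), and the member median was -0.20. Over all genes, 1756 passed that p in either direction with the block. Without the block, 6 members were lower. These 6 genes were Col6a2, Col14a1, Eln, Fbln1, Fbln5 and Pcolce, with log2 fold changes from -0.69 for Pcolce to -0.56 for Eln. Serpinh1 had an unadjusted edgeR p of 0.0701 in that fit. Lox was the member on the higher side, at 0.79.

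**Figure D3:**
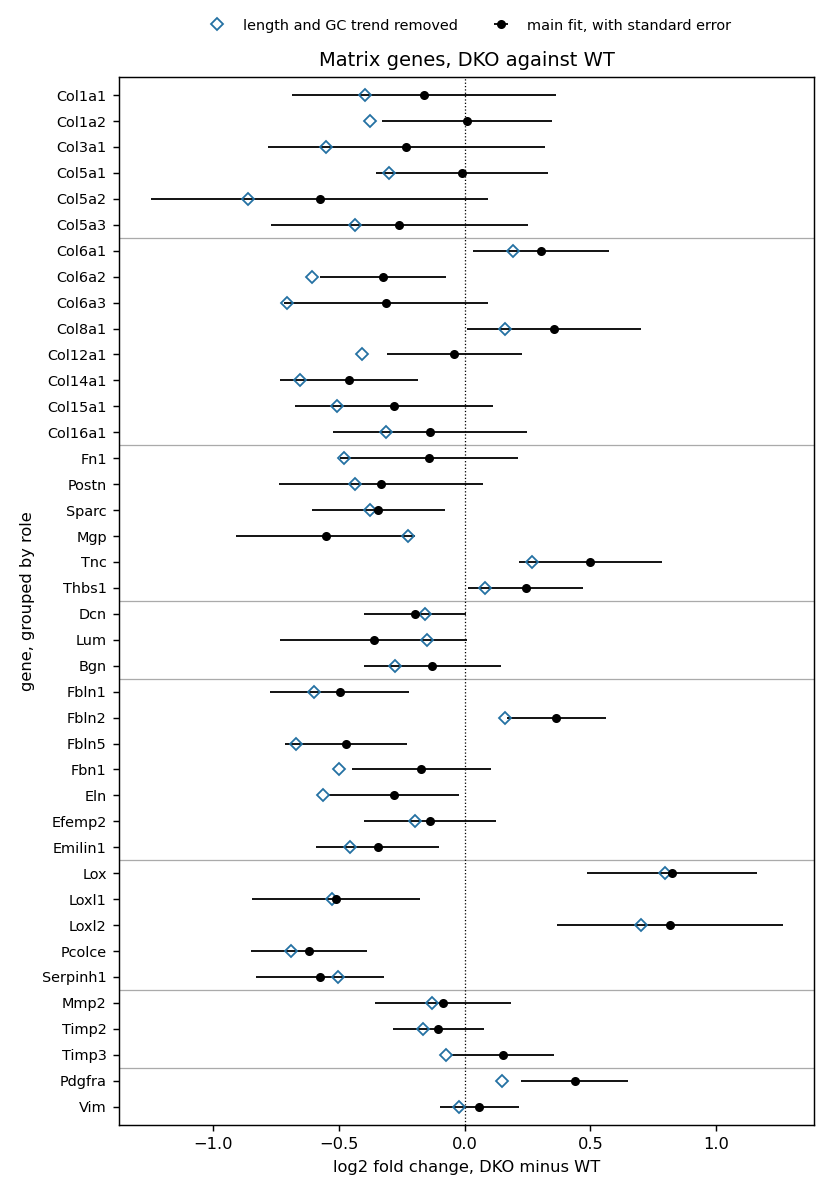
Filled points give the log2 fold change of each matrix gene with its standard error, and open diamonds give it after a trend on exon length and GC content was removed within each library. The diamonds lie mostly to the left of the points, and the median moves from -0.17 to -0.38.

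**Figure D4:**
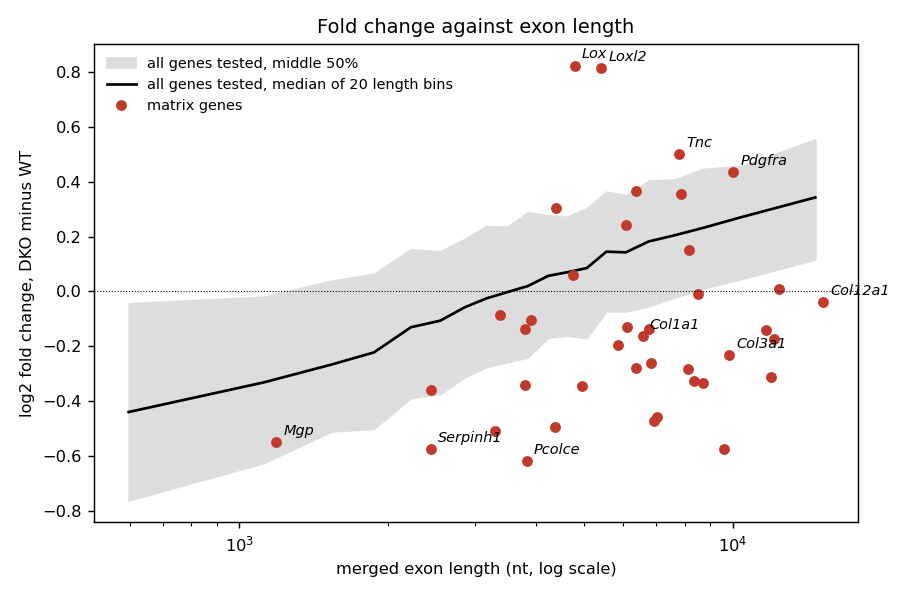
The log2 fold change is plotted against merged exon length on a log axis, with the median and middle 50% of all genes tested (at least 300 nt, 20 bins) in black and grey and the matrix genes in red. The median of all genes rises with length, and most matrix genes lie below it, while Lox and Loxl2 lie above, at 0.82 each.

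Other genes of collagen metabolism were examined as 5 lists with 68 genes, of which 55 were tested. None was called by edgeR, and 4 had an unadjusted p under 0.05, or 7.27% of those tested, against 21.1% of all genes. Groups did not overlap for Ppib, P4ha1 and Ctsk, with DKO lower, and for Tgfbr2, with DKO higher. Over all genes tested this held for 17.4%. The log2 fold change was -0.30 for P4ha1 and 0.29 for Tgfbr2. Of 15 tested genes for hydroxylation, folding and glycosylation of collagen 7 were higher and 8 lower. Ppib, cyclophilin B, a prolyl isomerase that helps collagen to fold, was at 135, 120 and 223 CPM in WT kidneys and 96.4, 81.3, 74.4 and 106 CPM in DKO kidneys. Every DKO library was below every WT library for Ppib, with a log2 fold change of -0.83 (SE 0.23, edgeR adjusted p 0.163), and DESeq2 gave an adjusted p of 0.0282. Without WT replicate 4 the log2 fold change of Ppib was -0.51. P4hb, a subunit of prolyl hydroxylase and the most abundant of this list, was at 1170 ± 215 CPM in WT kidneys (SD, n = 3) and 992 ± 192 CPM in DKO kidneys (SD, n = 4).

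Of 10 tested genes of collagen degradation 3 were higher and 7 lower. Ctsk, the collagen-cutting protease cathepsin K, was at 4.05, 3.28 and 6.25 CPM in WT kidneys and 1.41, 2.21, 1.13 and 2.29 CPM in DKO kidneys. No DKO value of Ctsk reached the WT range, and the log2 fold change was -1.36 (SE 0.33, edgeR adjusted p 0.163). With no low-count filter Ctsk was called (edgeR adjusted p 0.0481), while DESeq2 gave no adjusted p for it. The largest edgeR adjusted p, 0.494, came without WT replicate 4. Mmp13, a collagenase, had a log2 fold change of -0.78 (SE 0.34). Among 8 tested receptors Itga5, the fibronectin receptor subunit, had a log2 fold change of 0.68 (SE 0.31), with 3 of 4 DKO libraries above every WT library.

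In the remaining lists nothing passed an unadjusted p of 0.05. Of 7 tested genes for procollagen cleavage and crosslinking 6 were higher, with Tgm2, transglutaminase 2, the most abundant at 119 ± 5.67 CPM in WT kidneys (SD, n = 3) and 126 ± 8.35 CPM in DKO kidneys (SD, n = 4). Of 15 tested profibrotic signals and targets 10 were higher. The most abundant was Ltbp1, which holds latent TGF-beta in the matrix, at 84.4 ± 20 CPM in WT kidneys and 120 ± 68.8 CPM in DKO kidneys. This list summed to 268, 220 and 229 CPM in WT kidneys and 198, 399, 224 and 292 CPM in DKO kidneys, with DKO replicates 2 and 4 highest, as for Col1a1.

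Markers of other cells moved with some of these values. The 12 fibroblast and pericyte markers summed to 674 to 1123 CPM in WT kidneys and 473 to 707 CPM in DKO kidneys, with the lowest sums in DKO replicates 1 (473 CPM) and 3 (514 CPM). Ly6a alone made up 472 to 844 CPM of the WT sums and 287 to 486 CPM of the DKO sums. The other 11 markers summed to 234, 201 and 279 CPM in WT kidneys and to 186, 246, 181 and 221 CPM in DKO kidneys, with DKO replicates 1 and 3 again lowest. Tcf21, Cd34 and Nt5e were the most abundant of these, at 77.9, 51.5 and 48.6 CPM on average in WT kidneys. Pdgfrb was next, at 18.9, 10.4 and 15.1 CPM in WT kidneys and 12.2, 17.5, 12.8 and 17.3 CPM in DKO kidneys, lowest in WT replicate 2. The sums thus follow mainly the most abundant genes, and not every marker shared their order. Which kidney cells expressed Ly6a, Tcf21, Cd34 and Nt5e was not tested, so the sums are no measure of fibroblasts alone. Of the 12 markers 7 were higher and 5 lower in DKO, with a median log2 fold change of 0.01, and Thy1, Ly6a and Tcf21 were lower at an unadjusted edgeR p under 0.05. WT replicate 2, lowest of the WT libraries for most matrix genes, also had the lowest WT sums for fat markers (180 CPM, against 819 and 599), red cell genes (116, against 623 and 897) and endothelial markers (334, against 449 and 474). Its sums were also the lowest in WT for smooth muscle, macrophage, urothelial, adrenal and distal nephron markers. For proximal tubule markers (6140 CPM, against 5268 and 4924) and mesangial markers its sums were the highest in WT. Among DKO libraries the 7 fat markers summed to 1170 CPM in replicate 1, against 395 to 491 CPM in the others. Every fat marker had reads in every library except Lep, at 0 in DKO replicate 1. Adrenal markers summed to between 1.43 and 4.25 CPM, and Cyp11b2 among them had no reads. Smooth muscle and myofibroblast markers summed to 153 to 190 CPM in WT kidneys and 150 to 220 CPM in DKO kidneys, and macrophage markers to 107 to 187 CPM and 60.3 to 122 CPM. The part of these cell types in the matrix gene values was not tested.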

How the data were processed

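Raw read counts per Ensembl gene were deposited by the authors for all 7 libraries, with a filtered count table and a TMM-scaled signal table, used only for gene symbols. Per the submitters' processing notes, STAR 2.5.2a, DESeq2, edgeR and limma were among the authors' tools, and GRCm38 and GRCh38 are both listed, without roles. Which program counted reads, with which annotation and strand setting, the sources used here do not say. Per the labels' protocols, the library kit does not mark strand. Rows for transgenes and spike-ins (24, at most 0.000697% of a library) were left out.

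DKO was compared with WT by edgeR 4.0.16 (R 4.3.3; TMM, robust quasi-likelihood F test, two-sided, Benjamini-Hochberg over 15394 genes kept by filterByExpr at a minimum count of 10 and a minimum total of 15). Standard errors were derived from the F statistic. Alternatives used DESeq2 1.42.0, limma 3.58.1, other scaling, no filter, a replicate block, a spline trend on exon length and GC content, and each library left out. Exon lengths, positions and GC content came from GENCODE M21 (GRCm38), and upstream sequences from RefSeq (GRCm38.p6). The tests were checked on simulated counts. Libraries of a group differed by at least 40.5 in chi-square per gene, so none was counted as a repeat. All 40 members are accounted for: members with an unadjusted p under 0.05 or no overlap, and the most abundant of each role, are given in every library, as are others that show how the list varied, chosen after their values were seen. The members and lists were chosen with earlier results of these data known. Exons of 14 members overlap another gene, by over 10% for Timp3 and Fbn1 only. Reads carry no molecular identifiers.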

Additional observations from a re-analysis of the deposited data

Results flagged for a closer look

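No matrix gene had a DKO library standing apart from the other 3 by Dixon's criterion; groups of 3 are not tested. Outside the gene counts, the deposited row for a neomycin resistance cassette received 73, 75, 81 and 125 reads in DKO replicates 1 to 4 and 0 in each WT library. The row for LacZ received 21, 21, 16 and 32 reads in DKO and 1, 2 and 5 in WT replicates 1, 2 and 4, so that it had reads in both groups. Both are signals in data that no comparison here uses.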

How the results depend on the processing

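No member passed an adjusted p of 0.05 in any of the 14 alternatives, and of the 40 members 23 kept their direction in all of them (16 lower, 7 higher), Serpinh1, Pcolce, Fbln5 and Lox among these. Over all genes the adjusted count was 0 in the main test, 66 with no low-count filter, 672 with DESeq2, 1 with the replicate block and length and GC trend removed, and 0 to 7 with 1 library left out (7 without DKO replicate 1). In either direction, genes at an unadjusted p under 0.05 numbered 3250 in the main test, 3133 with limma-voom and 2346 with the replicate block. With no low-count filter, where more genes were tested, they numbered 3993. There were 2398 with the trend removed (9.03% of all genes lower) and 1756 with block and trend removal together. With 1 library left out they ran from 1582 (without WT replicate 4) to 3796 (without DKO replicate 1), with 2075 without DKO replicate 2. Members higher at that p were 2 with no low-count filter, 2 with limma-voom, 0 with the replicate block, 0 with block and trend removal, and 0 to 2 with 1 library left out. Members lower at that p were 1 with the replicate block, 6 with the trend removed, 3 with block and trend removal and 0 to 6 with 1 library left out. The member median was -0.05 with the replicate block, -0.38 with the trend removed, -0.20 with both and -0.38 to -0.01 with 1 library left out. The labels do not say whether replicate numbers pair the animals. Same-numbered libraries had correlations of -0.133, 0.164 and 0.135, and differently numbered ones ran from -0.229 to 0.162. These few values cannot decide whether the animals were paired.

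Signs turned for 17 members. With the replicate block the log2 fold changes of these were 0.061 (Col5a1), 0.067 (Col5a3), 0.046 (Col12a1), 0.100 (Col16a1), 0.044 (Fn1) and 0.051 (Mmp2). Col1a2 was at -0.009 with median-of-ratios size factors, -0.009 with DESeq2, -0.085 with limma-voom, -0.377 with the trend removed and -0.237 with block and trend removal. Limma-voom gave 0.015 for Col12a1. Trend removal gave -0.023 for Vim and -0.072 for Timp3, and together with the block -0.057 for Vim, 0.065 for Lum, 0.005 for Mmp2 and -0.041 for Thbs1. With 1 library left out the ranges that crossed 0 were -0.540 to 0.129 (Col1a1), -0.355 to 0.211 (Col1a2), -0.763 to 0.058 (Col3a1), -0.217 to 0.153 (Col5a1), -0.686 to 0.303 (Col5a3), -0.226 to 0.356 (Col12a1), -0.388 to 0.226 (Col16a1), -0.401 to 0.135 (Fn1), -0.331 to 0.105 (Bgn), -0.422 to 0.001 (Fbn1), -0.041 to 0.107 (Vim), -0.271 to 0.069 (Mmp2), -0.304 to 0.002 (Timp2), -0.007 to 0.261 (Timp3) and -0.355 to 0.058 (Efemp2). The cause of these changes was not tested. Depth limits the scarce members Col5a1, Col5a3, Col16a1, Lox and Loxl2, which averaged under 2 CPM in WT kidneys.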
